A study of Mus musculus with 6 samples.

Results

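Normoxic embryoid bodies (EBs, the aggregates that embryonic stem cells form when they start to differentiate) were compared with the mouse embryonic stem cells (mESCs) they were made from, 16 h into culture. The members of the comparison were the mouse miRNAs that the scanner called detected on both arrays of either group, which were 451 of the 1247 on the array. Of these, 394 were detected on all 4 arrays, 35 on both EB arrays and neither mESC array, and 4 on both mESC arrays and neither EB array. A further 16 were detected on both EB arrays and 1 mESC array, and 2 on both mESC arrays and 1 EB array. The other 766 miRNAs that were detected on none of the 4 arrays, and 30 that were detected on some without meeting the rule, were not members.

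The mESCs were an undifferentiated C57 line grown on a layer of mitomycin C-treated mouse embryonic fibroblasts, in DMEM with serum and the cytokine LIF (leukaemia inhibitory factor), which keeps such cells from differentiating. The EBs were formed in hanging drops with neither LIF nor feeder cells. Both were kept under normoxia for 16 h, so that loss of LIF, loss of feeders and aggregation in drops entered together and cannot be told apart. Each group had 2 single-colour arrays, and 2 arrays of EBs kept under hypoxia for the same time entered the fit for its estimate of the spread. The labels do not say that arrays of a group came from separate cultures, so the p-values reflect only how much the arrays of a group differed, a spread that may be technical.

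A mature miRNA is cut from one arm of a hairpin transcript, the 5p or the 3p arm, and guides the silencing complex to messenger RNAs chiefly through its seed, bases 2 to 8. miRNAs with the same seed form a family with largely shared targets, although they often come from different genes. In mouse ES cells the miR-290 to miR-295 and the miR-302/miR-367 clusters are known as the major stem cell miRNAs, and several of their 3p arms share a seed. The let-7 family, held low in ES cells, and miR-125 are known as miRNAs of differentiating cells.

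The 5 members matched to a sequence with the seed AAGUGCU are shown first, because they share their seed across both stem cell clusters and separated into 2 sets of responses. Capitals mark the seed in each RefSeq sequence (GRCm38.p6), written 5′ to 3′.
miR-302b-3p: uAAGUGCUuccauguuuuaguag
miR-302d-3p: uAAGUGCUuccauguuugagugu
miR-291a-3p: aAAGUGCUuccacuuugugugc
miR-294-3p: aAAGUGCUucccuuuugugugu
miR-295-3p: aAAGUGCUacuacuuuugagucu
The miR-302 hairpins lie on chromosome 3 (miR-302d-3p at chr3:127545665-127545687, plus strand) and the other 3 on chromosome 7 (miR-294-3p at chr7:3220691-3220712, plus strand). The first base and the 3′ end differ between them.

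The family with the seed AUUGCAC is shown because 1 of its 5 members, miR-367-3p (chr3:127545779-127545800, plus strand), comes from the miR-302 cluster and the others from elsewhere.
miR-367-3p: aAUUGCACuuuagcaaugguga
miR-92a-3p: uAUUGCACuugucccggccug
miR-25-3p: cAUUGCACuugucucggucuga
miR-363-3p: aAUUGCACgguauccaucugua
miR-32-5p: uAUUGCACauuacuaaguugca

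The miR-125 and let-7 sequences are shown because members of near-identical sequence moved in opposite directions on the scaled signal.
miR-125a-5p: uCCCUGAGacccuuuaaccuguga
miR-125b-5p: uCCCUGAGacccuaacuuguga
miR-6394: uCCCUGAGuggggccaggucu
let-7a-5p: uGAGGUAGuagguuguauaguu
let-7b-5p: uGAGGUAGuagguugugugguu
let-7c-5p: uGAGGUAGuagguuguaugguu
miR-125a-5p and miR-125b-5p differ by 3 edits (substitutions, insertions or deletions), let-7a-5p and let-7b-5p by 2, and let-7c-5p from each of these by 1.

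Detection calls numbered 408 and 415 on the mESC arrays and 446 and 473 on those of normoxic EBs. The EB arrays were also brighter, by 1.66-fold at the 75th percentile over miRNAs that every one of the 6 arrays detected. Each array was scaled to that percentile, and all changes below are relative to it (scaled signal, in array units). Arrays of a pair correlated at r = 0.997 for mESCs and 0.998 for normoxic EBs, and their differences were smaller than the scanner's own error. The mESC arrays lay in another row of the slide than the EB arrays, so a difference between rows and one between cell states cannot be told apart.

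Of the 484 miRNAs tested, 248 passed the threshold (51.2%, adjusted p under 0.05, limma with Benjamini-Hochberg adjustment over all 484). All 248 were members, 126 higher (26%) and 122 lower (25.2%) in EBs. The split depended on the scaling, with 178 higher and 107 lower after median scaling, 184 and 100 after scaling to the array's 5 hur control features, and 326 and 11 with no scaling, which moved the median change of the 394 miRNAs by 0.73 (log2). The arrays of both groups did not overlap for 384 members (79.3% of the 484 tested), a share that most miRNAs reach here. A total of 92 miRNAs passed as higher and 11 as lower under each of 6 scalings, quantile normalization and no scaling included. Among the 11 are miR-669l-3p and miR-224-5p, which were undetected on both EB arrays and could differ in 1 direction only. miR-467g, also among the 11, was undetected on an EB array and enters the fit at the floor in EBs. The 92 were not split by detection.

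The 126 hold 37 and the 122 hold 5 miRNAs undetected on an array of the other group, which enter the fit at the floor. Among the 394 miRNAs detected on all 4 arrays, 89 were higher, 117 lower and 188 did not pass. Most changes in this class were modest. The median log2 change was 0.00, with quartiles of -0.41 and 0.27, and only 9 of the higher and 20 of the lower miRNAs changed by 2-fold or more. Split into 4 bins by level, the dimmest bin had a spread of log2 changes with an SD of 0.68, against 0.46 to 0.49 in the others. By bin from dimmest to brightest, 33, 20, 14 and 22 were higher and 25, 38, 35 and 19 lower.

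**Figure D1:**
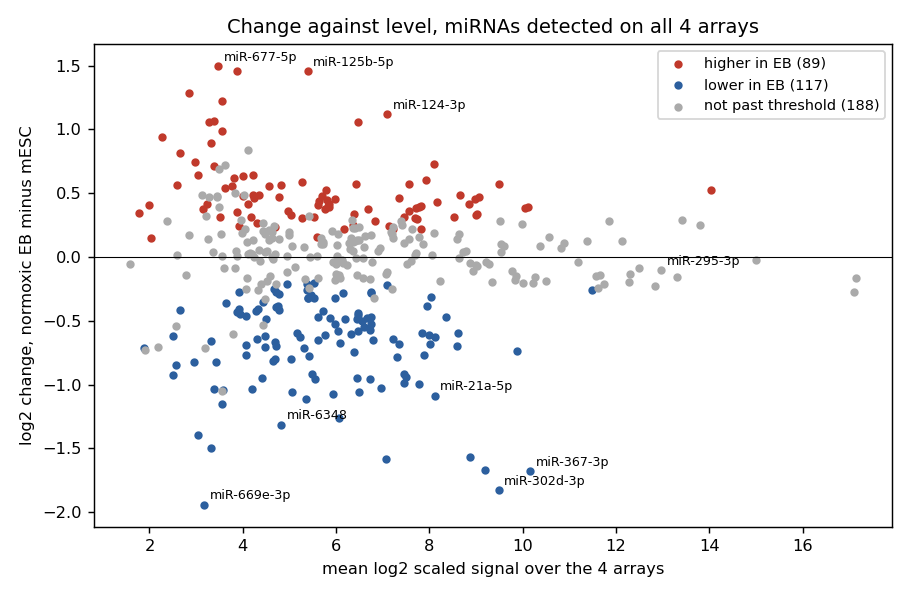
Log2 change (normoxic EB minus mESC, relative to the scaled 75th percentile) against the mean log2 scaled signal of the 4 arrays for 394 miRNAs, each a point, with 89 coloured as higher, 117 as lower and 188 as not past the threshold. Points scatter most widely among dim miRNAs, while miR-302d-3p and miR-367-3p stand low among bright ones.

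The miR-302/miR-367 cluster is transcribed from an intron of Larp7 and known to mark primed and early-differentiating pluripotent cells. It held 5 of the 8 largest falls among miRNAs detected on all 4 arrays that passed the threshold without overlap of the groups. miR-302d-3p read 1372 and 1340 units on the mESC arrays and 400.5 and 364 on the normoxic EB arrays. Both EB values lay far under both mESC values, a fall of 3.55-fold (adjusted p = 0.000348). miR-367-3p read 2121 and 1985 in mESCs and 674 and 609 in EBs, with no overlap (3.20-fold lower, adjusted p = 0.000357). The other 3p arms of the cluster fell by similar sizes, miR-302a-3p at a log2 change of -1.67, miR-302c-3p at -1.59 and miR-302b-3p at -1.57. In bulk RNA of this kind, fewer cells that make a miRNA and less of it per cell cannot be told apart.

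The hairpin of miR-302d also carried the difference between arms. Its 5p arm read 14.1 and 14.6 in mESCs and 8.03 and 8.20 in EBs, 1.77-fold lower (adjusted p = 0.0368), a call lost without either mESC array or either EB array and with median, hur or no scaling. The 3p to 5p difference within an array was 6.60 and 6.52 (log2) in mESCs and 5.64 and 5.47 in EBs, so that the 3p arm fell 2.00-fold further than the 5p arm (adjusted p = 0.00961).

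**Figure D2:**
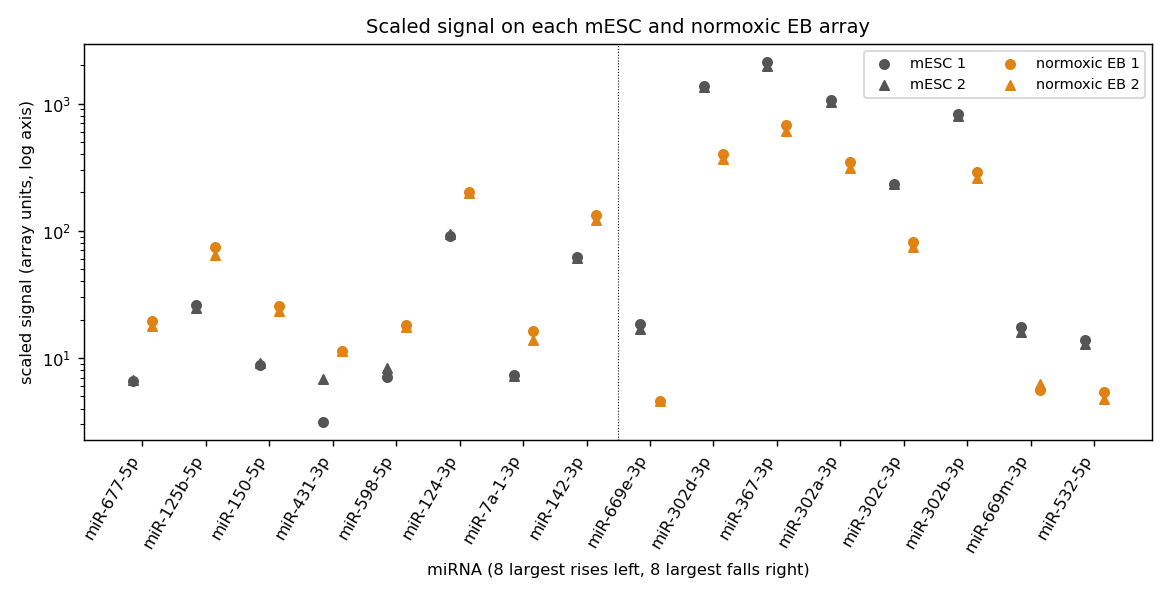
Scaled signal (log axis, array units) on each of the 2 mESC and 2 normoxic EB arrays for the 8 miRNAs with the largest rises and the 8 with the largest falls among those detected on all 4 arrays. All 16 were chosen among called miRNAs whose groups do not overlap, so their separation follows from the choice. miR-431-3p is the one whose mESC arrays differ most from each other, at 3.15 and 6.79.

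The miR-290 to miR-295 miRNAs with the same seed stayed closer to the scaled reference than those of the miR-302/miR-367 cluster. miR-291a-3p read 6060 and 5907 in mESCs and 5906 and 5407 in EBs (adjusted p = 0.322). Its EB values lay just under its mESC values, and the 95% interval of the log2 change ran from -0.25 to 0.09. miR-294-3p and miR-295-3p had log2 changes of -0.23 (adjusted p = 0.0651) and -0.10 (adjusted p = 0.293). miR-294-3p did pass as lower when only miRNAs detected on all 6 arrays were tested, and with replicate numbers as a block. With no scaling the log2 changes of these 3 were 0.65, 0.50 and 0.63 and passed the threshold as rises, while miR-302b-3p and miR-302d-3p were still called lower. The passenger arms miR-290-3p, miR-291a-5p and miR-294-5p passed as lower, at log2 changes of -0.52, -0.57 and -0.46, but turned to 0.20, 0.16 and 0.27 with no scaling. Of the cluster's other passenger arms, miR-292-5p passed as lower at -0.22 (limma, adjusted p = 0.0310). Those of miR-291b-3p, miR-293-5p and miR-295-5p did not pass, at -0.73, 0.18 and -0.004. The changes of these other arms with no scaling are not given here. The call of miR-290-3p was also lost without mESC array 1 and without EB array 2.

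Ratios within an array do not depend on a scaling that multiplies the whole array by 1 factor. Each of 39 miRNAs in 10 seed families was therefore set against the mean log2 signal of the other members of its family on the same array. Of the 39, 29 changed against their family (74.4%), 16 upward (41%) and 13 downward (33.3%). A member can move in this measure because its relatives moved, so changes on the scaled signal are given as well for the members named.

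In the AAGUGCU family all 5 members changed against the rest. miR-302d-3p stood at -1.66 and -1.63 (log2) against the others on the mESC arrays and at -2.99 and -2.97 on the normoxic EB arrays, a drop of 2.52-fold. miR-302b-3p dropped 2.01-fold in the same measure. miR-291a-3p, miR-295-3p and miR-294-3p rose against the rest by log2 changes of 0.85, 0.83 and 0.67, although none of them passed the test on the scaled signal. The pattern was the separation of the chromosome 3 from the chromosome 7 members. miR-302c-3p was left out of the family because bases 2 to 8 of its RefSeq sequence read the shared letters 1 base later, and miR-302a-3p, which fell by 1.67 on the log2 scale, because no sequence was matched to it, so that the family ratios rest on these 5.
miR-302c-3p: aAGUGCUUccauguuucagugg

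The AUUGCAC family separated in the same way. miR-367-3p stood at 2.78 and 2.69 (log2) against its relatives in mESCs and at 1.13 and 1.12 in normoxic EBs, a drop of 3.06-fold. No array of either group came near the other. miR-92a-3p, of the miR-17/92 cluster that is known to promote proliferation, read 2405 and 2350 in mESCs and 2386 and 2254 in EBs, with a log2 change of -0.04 (95% interval -0.21 to 0.14). miR-32-5p, miR-92a-3p, miR-25-3p and miR-363-3p rose against the family by log2 changes of 0.49, 0.44, 0.43 and 0.25. On the scaled signal none of them passed, with miR-32-5p at 0.004, miR-25-3p at -0.05 and miR-363-3p at -0.19. With no scaling miR-92a-3p, miR-25-3p and miR-363-3p themselves turned to 0.69, 0.68 and 0.54.

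**Figure D3:**
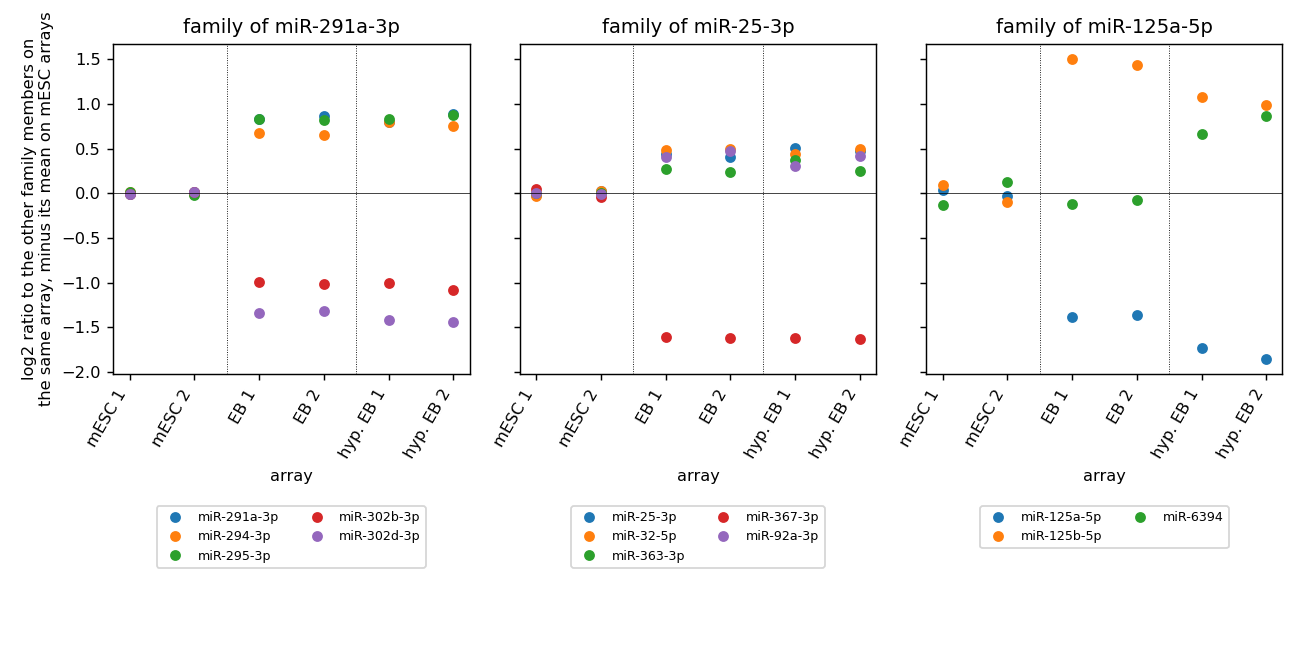
Within-array log2 ratio of each member to the mean of its other family members, minus that ratio's mean over the 2 mESC arrays, for 3 seed families on 6 arrays (mESC, normoxic EB, hypoxic EB, each a point). miR-302d-3p, miR-302b-3p and miR-367-3p are low on all 4 EB arrays, and miR-125b-5p and miR-125a-5p part in opposite directions.

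The miR-125 family showed opposite changes. miR-125b-5p, known to rise as stem cells differentiate, read 26.3 and 24.5 in mESCs and 75.1 and 64.7 in EBs, 2.75-fold higher (adjusted p = 0.000819). miR-125a-5p read 105 and 104 in mESCs and 80.8 and 72.7 in EBs. Its groups did not overlap either, and it fell 1.36-fold (adjusted p = 0.00703), a direction that turned to 0.29 (log2) with no scaling. miR-6394 passed as higher at a log2 change of 0.41 (adjusted p = 0.0482), a call lost without any single one of the 6 arrays, and turned to -0.03 with quantile normalization. Within arrays miR-125b-5p rose against the family 2.77-fold and miR-125a-5p dropped 2.60-fold, both past the threshold under all of the alternatives tried. The neighbour of miR-125a in its transcript, miR-99b-5p, chosen after its values were seen, had a log2 change of -0.58 (adjusted p = 0.00205), which turned to 0.15 with no scaling.

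The 3 let-7 members detected on all 4 arrays were dim, between 3.78 and 11.5 units. let-7a-5p read 6.69 and 6.55 in mESCs and 11.5 and 9.29 in EBs, 1.56-fold higher (adjusted p = 0.0117). let-7b-5p read 8.03 and 7.54 in mESCs and 4.43 and 3.78 in EBs, 1.90-fold lower (adjusted p = 0.00611). let-7f-5p was detected at 6.96 and 6.03 in EBs and on neither mESC array, which is a description without a test. let-7c-5p did not pass (7.04 and 7.35 against 5.32 and 4.58, adjusted p = 0.182). The call of let-7a-5p was lost without either mESC array and with quantile normalization, both calls were lost with a floor 4 times as high, and that of let-7b-5p was lost with no scaling. Within arrays let-7a-5p rose against the family 2.60-fold and let-7b-5p dropped 1.97-fold, but neither ratio passed with a floor 4 times as high, nor that of let-7b-5p without either EB array. The members differ by 1 or 2 bases, and how far their probes cross-react was not tested.

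Other families moved less. The miR-200 family, known for holding epithelial character, had all 3 members with the seed AAUACUG lower, from miR-200c-3p at -0.49 to miR-200b-3p at -0.32, and these turned to 0.24 and 0.41 with no scaling. The 3 miR-29 members were also lower, from miR-29a-3p at -0.42 to miR-29b-3p at -0.20, and turned to 0.31 and 0.53 with no scaling. The calls of miR-200b-3p and miR-29b-3p were lost without either mESC array, without EB array 2 and with median or hur scaling, that of miR-29b-3p also with quantile normalization and in a fit on the 4 arrays alone, and that of miR-29a-3p without mESC array 1. In the miR-15/16 family, known to restrain the cell cycle, miR-322-5p alone passed, at 21.4 and 21.5 in mESCs against 14.9 and 11.9 in EBs (1.61-fold lower, adjusted p = 0.0104). It turned to 0.04 (log2) with no scaling and did not pass without either mESC array, but its ratio to the family dropped 1.65-fold and passed under all alternatives tried. miR-15a-5p and miR-195a-5p rose against this family by log2 changes of 0.37 and 0.27, but did not pass on the scaled signal, at 0.18 and 0.10.

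In the miR-130/301 family miR-721 rose 1.37-fold on the scaled signal and 1.55-fold against its relatives, while miR-301a-3p was 1.22-fold lower (adjusted p = 0.035), a call that was lost with median, hur or quantile scaling and without either mESC array or EB array 2, and that turned to 0.44 (log2) with no scaling. The miR-721 call on the scaled signal was lost without mESC array 1 and without either EB array. None of the 5 members of the miR-17/106 family, from miR-20b-5p at -0.15 to miR-93-5p at 0.04, passed, and none of the 3 miR-30 members did (limma, with 0 of these 8 at an unadjusted p under 0.05). Their within-array ratios still moved by small amounts past the threshold, such as 0.15 (log2) for miR-93-5p and -0.23 for miR-30e-5p (-0.12 on the scaled signal).

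**Figure D4:**
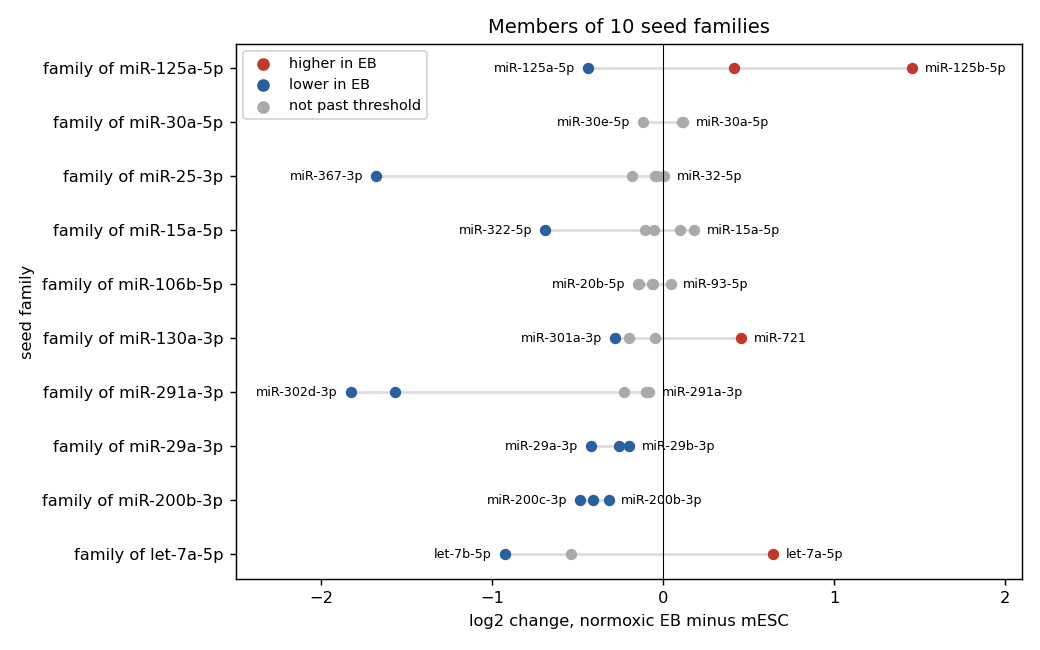
Log2 change (normoxic EB minus mESC) of the 39 members of 10 seed families, a row per family named by 1 of its members and ordered by median, with the lowest and highest member labelled and points coloured by the test. The families of miR-291a-3p, miR-25-3p and miR-125a-5p have the widest rows along with let-7.

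Both arms were detected on all 4 arrays for 55 hairpins, and in 34 of them the 3p to 5p ratio changed (61.8%). The change was toward the 5p arm in 23 (41.8%) and toward the 3p arm in 11 (20%). The median size of the change was 0.38 (log2), and 5 of the 34 changed by 2-fold or more. Both arms were called higher in 3 hairpins and lower in 13, 1 arm alone was called in 23, neither in 13, and the arms were called in opposite directions in 3. Without mESC array 1 the count was 21.

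Of the hairpins with changed ratios, 3 are printed with both mature arms in capitals, since their shifts rest on 1 arm that moved while the other did not pass.
miR-677: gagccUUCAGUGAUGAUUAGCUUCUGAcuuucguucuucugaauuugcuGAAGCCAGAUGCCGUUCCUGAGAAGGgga
miR-574: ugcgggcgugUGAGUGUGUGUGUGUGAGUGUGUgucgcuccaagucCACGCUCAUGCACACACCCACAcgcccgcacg
miR-15b: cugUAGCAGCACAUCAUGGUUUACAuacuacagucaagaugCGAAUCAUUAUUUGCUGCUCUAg
These lie at chr10:128085286-128085363, chr5:64970318-64970395 and chr3:69009772-69009835, all on the plus strand of GRCm38.p6.

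miR-677-5p had the largest rise of the miRNAs detected on all 4 arrays that passed without overlap of the groups. It read 6.55 and 6.70 in mESCs and 19.5 and 17.97 in EBs, 2.82-fold higher (adjusted p = 0.000371). The 3p arm of the same hairpin read 207 and 201 against 213 and 201 (adjusted p = 0.888), with overlapping groups. The 3p to 5p difference accordingly went from 4.98 and 4.91 (log2) in mESCs to 3.45 and 3.49 in EBs, a 2.79-fold shift toward 5p.

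miR-574 shifted toward 5p by 2.097-fold. Its 3p arm read 107 and 100 in mESCs and 37.0 and 50.4 in EBs (2.39-fold lower, adjusted p = 0.00508, not past the threshold with no scaling), and its 5p arm did not pass. The 3p to 5p difference was -3.93 and -3.89 (log2) in mESCs and -5.07 and -4.89 in EBs. The 5p arm is a run of GU repeats, as the hairpin above shows.

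miR-15b, whose 5p arm belongs to the miR-15/16 family, shifted toward 3p by 1.90-fold. The 3p arm read 4.35 and 5.18 in mESCs and 8.74 and 8.002 in EBs, and the 5p arm 520 and 496 against 505 and 440. This shift did not pass with quantile normalization or with a floor 4 times as high, which lies above the 3p values.

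The hairpins with arms called in opposite directions were miR-1943, miR-877 and miR-674, each with the 5p arm higher and the 3p arm lower. miR-1943-5p read 5.87 and 6.40 in mESCs and 10.04 and 10.5 in EBs, and miR-1943-3p 17.9 and 16.2 against 6.20 and 11.0. The ratio shifted 3.45-fold toward 5p, with the 2 EB arrays apart from each other at -0.69 and 0.07 (log2). miR-877, excised from a short intron of Abcf1 without Drosha, shifted 1.79-fold, with 5p at 166 and 170.0 against 222 and 210.1 and 3p at 73.9 and 64.4 against 48.6 and 50.3. miR-674 shifted 1.79-fold, which did not pass with quantile normalization. The opposite calls of the single arms are less firm than the ratios, since miR-674-3p and miR-877-3p turned to 0.46 and 0.25 (log2) with no scaling. Without either mESC array, the calls of both miR-674 arms, miR-1943-3p and miR-877-5p were lost, and without either EB array those of both miR-877 arms.

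miR-669e-3p, of the repeat-rich cluster in an intron of Sfmbt2, read 18.4 and 16.9 in mESCs and 4.58 and 4.61 in EBs, 3.84-fold lower (adjusted p = 0.00666), which did not pass without normoxic EB array 2. Its 5p arm read 90.3 and 84.0 against 57.1 and 67.7, 1.40-fold lower, which turned to 0.24 (log2) with no scaling. The 2.74-fold shift of the hairpin toward 5p was lost with a floor 4 times as high. Of 48 members named in the miR-297, miR-466, miR-467 and miR-669 series, whose probes may share targets of near-identical sequence, 44 were lower and 0 higher (limma, also 44 and 0 at an unadjusted p under 0.05). Of all miRNAs tested, 25.2% were lower and 26% higher. Of the 48, 44 were detected on all 4 arrays. The rest include miR-669l-3p, undetected in EBs, which could differ in 1 direction only. They also include miR-467g, which was undetected on an EB array and enters the fit at the floor in EBs. Series members made up 44 of the 122 lower calls. The median log2 change of the 44 detected on all 4 arrays was -0.71, against 0.00 for all 394, and was 0.01 with no scaling. Without scaling 3 of the 48 were lower, beside 11 of the 484 tested. The 3 were miR-669e-3p and, both at the floor in EBs, miR-669l-3p and miR-467g.

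**Figure D5:**
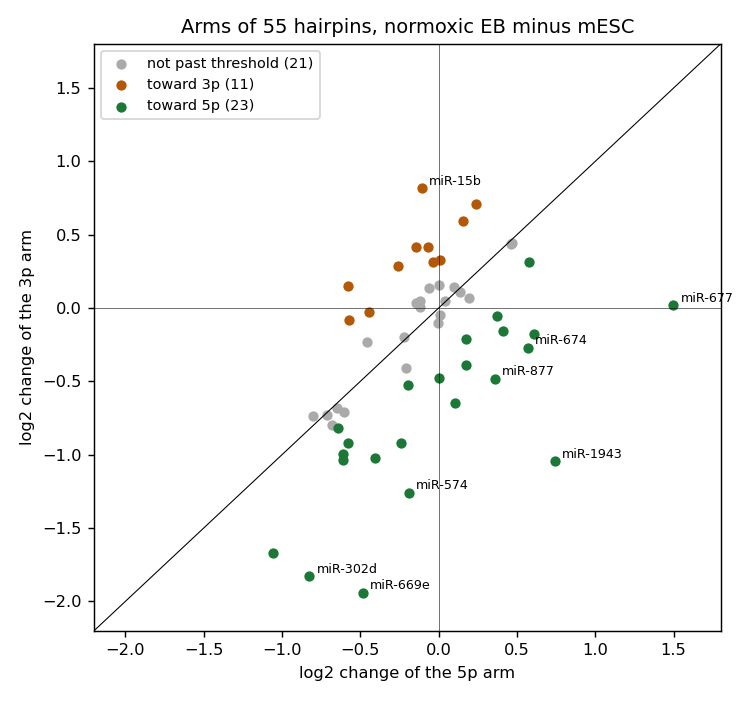
Log2 change of the 3p arm against that of the 5p arm for 55 hairpins, with the diagonal marking equal change. The 23 hairpins that shifted toward 5p lie under the diagonal, miR-677 to the far right with a 3p change of 0.02, and the 11 that shifted toward 3p lie over it, with miR-15b highest.

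Among the other large rises, miR-150-5p and miR-142-3p are known chiefly from blood cells, and miR-124-3p from neurons. miR-150-5p read 8.75 and 9.10 in mESCs and 25.4 and 23.5 in EBs, 2.74-fold higher (adjusted p = 0.000348). miR-142-3p read 61.8 and 60.5 in mESCs and 133 and 122 in EBs, 2.08-fold higher (adjusted p = 0.000739). miR-142-5p, from the same hairpin, read 26.8 and 24.7 in EBs and was detected on mESC array 1 alone, at 5.98. The groups did not overlap for any of these, which was a condition of choice for miR-150-5p and miR-142-3p. The same held for 79.3% of all miRNAs tested. Of the other listed blood-cell miRNAs, miR-155-5p had a log2 change of -0.03, which turned to 0.69 with no scaling, and miR-223-3p, a defining marker of myeloid cells, was undetected on all 4 arrays. The summed scaled signal of the list was 96.5 and 91.5 in mESCs and 205 and 191 in EBs.

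miR-124-3p read 91.4 and 94.1 in mESCs and 203 and 199 in EBs, 2.17-fold higher (adjusted p = 0.000466). Its 5p partner, miR-124-5p, was detected at 12.4 and 11.2 in EBs and on neither mESC array, which is a description without a test. The rest of the neural list did not follow it. miR-9-5p and miR-9-3p were lower, 1.52-fold and 1.63-fold, and turned to 0.12 and 0.02 (log2) with no scaling. miR-218-5p read 6.995 and 5.91 in mESCs and 3.76 on the 1 EB array that detected it, and miR-137-3p was undetected on all 4 arrays.

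Further large rises were those of miR-598-5p (2.33-fold), miR-431-3p (2.44-fold) and miR-7a-1-3p (2.09-fold). The miR-431-3p call was lost in a fit on the 4 arrays alone and without either EB array, and that of miR-7a-1-3p without any single one of the 4 arrays. miR-681 and miR-708-5p, chosen after their values were seen, rose 1.85-fold and 1.92-fold (adjusted p = 0.000616 and 0.0018), with miR-681 at 7.24 and 7.45 in mESCs and 13.4 and 13.9 in EBs. miR-708-5p read 3.33 and 3.61 against 6.87 and 6.48, and did not pass with quantile normalization or a floor 4 times as high.

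Members of the miR-183/96/182 cluster, known from sensory epithelia, rose together, and were chosen after their values were seen. All 4 detected members passed as higher, with a median log2 change of 0.44, beside 26% higher of all miRNAs tested. miR-96-5p read 344 and 339 in mESCs and 504 and 457 in EBs, 1.40-fold higher (adjusted p = 0.005). miR-182-5p read 191 and 194 against 262 and 243, and miR-183-5p read 72.9 and 68.0 against 111 and 99.4. For none of these did the arrays overlap, as for 79.3% of all miRNAs tested. miR-183-3p was the smallest, at 10.3 and 10.2 against 13.3 and 12.2, and its call was lost without either mESC array.

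Beyond the miR-302/miR-367 cluster and the series named miR-297, miR-466, miR-467 and miR-669, the large falls were scattered. miR-21a-5p, known from fibroblasts and many other cell types, read 415 and 393 in mESCs and 201 and 179 in EBs, 2.13-fold lower (adjusted p = 0.0011), and did not pass with no scaling. miR-6348, chosen after its values were seen, read 44.8 and 44.4 in mESCs and 17.5 and 18.4 in EBs, 2.48-fold lower, and was called lower under each scaling. miR-532-5p read 13.8 and 12.9 against 5.41 and 4.74, 2.63-fold lower, and did not pass with no scaling. miR-210-3p, the classical hypoxia-induced miRNA, read 154 and 142 in mESCs and 79.3 and 73.6 in normoxic EBs, 1.94-fold lower (adjusted p = 0.00121), with no overlap, but did not pass with no scaling.

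The mESC cultures contained feeder fibroblasts and the EBs none, so the fibroblast miRNAs were read as a list of 19. Of its 10 members detected on all 4 arrays 1 rose and 5 fell, beside 26% and 25.2% of all miRNAs tested. Its 11 members add miR-199a-3p, undetected in mESCs. With no scaling 6 of the 11 passed as higher and 0 as lower, beside 326 and 11 of the 484 tested. The falls on the scaled signal were those of miR-21a-5p, miR-221-3p, miR-31-5p, miR-29a-3p and miR-29b-3p. With no scaling the changes of miR-221-3p, miR-31-5p, miR-29a-3p and miR-29b-3p turned to 0.03, 0.28, 0.31 and 0.53 (log2). The rise was that of miR-125b-5p. miR-199a-3p was detected at 5.56 and 7.85 in EBs and on neither mESC array. The summed signal of the list was 815 and 784 in mESCs and 615 and 569 in EBs when scaled, and 594 and 583 against 726 and 716 when not. The mesenchymal markers miR-199a-5p, miR-199b-5p, miR-214-3p, miR-143-3p, miR-145a-5p, miR-10b-5p, miR-100-5p and miR-99a-5p were undetected on all 4 arrays. The call of miR-31-5p was lost without any single one of the 4 arrays, that of miR-29a-3p without mESC array 1, and that of miR-29b-3p without either mESC array or EB array 2. The part of feeder RNA in the falls was not tested.

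The stem cell identity of both groups was read from 24 miRNAs of the 2 stem cell clusters, of which 21 were members, 0 rose and 11 fell (limma, 0 and 17 at an unadjusted p under 0.05), beside 26% higher and 25.2% lower of all tested. With no scaling 9 rose and 5 fell, beside 326 higher and 11 lower of all 484 tested. Their summed scaled signal was 39024 and 37438 in mESCs and 32530 and 29398 in EBs, and the unscaled sum 28412 and 27845 in mESCs and 38409 and 36989 in EBs. The 3 undetected ones were the minor arms miR-302b-5p, miR-302c-5p and miR-367-5p. Of 4 listed miRNAs known to target Oct4, Nanog or Sox2 coding sequence, miR-134-5p and miR-296-5p were members and did not pass, at log2 changes of 0.15 and -0.14 (both passed as rises with no scaling, miR-296-5p at 0.59), and miR-296-3p and miR-470-5p were undetected. All 5 endoderm and liver miRNAs listed were undetected on the 4 arrays, as were 6 of 7 muscle miRNAs.

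A mature miRNA undetected in a group was deposited at a constant value, so the 35 detected on both EB arrays and neither mESC array enter the fit at the floor. They could differ in 1 direction only, so no fold or test is given for them and their detection is a description. Their scaled means in EBs ran from 2.94 to 13.3 with a median of 6.01. Of the 35, 26 were also detected on both hypoxic EB arrays, 5 on 1 of them and 4 on neither. miR-6388 was the brightest, at 12.7 and 13.99 in EBs, followed by miR-124-5p, miR-3076-5p at 11.0 and 12.4, miR-1945 at 9.44 and 9.73, and miR-1247-3p at 9.03 and 9.51. miR-184-3p, known from the cornea and lens, read 5.46 and 9.33.

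The mESC arrays were dimmer before scaling, by the ratio of 1.66, and the part of this in the missing detection was not tested. The 30 miRNAs outside the members that had some detection read between 1.75 and 8.12, with a median of 3.80, and the 18 members detected on 1 array of a group read between 1.88 and 26.8 where detected. In the other direction, miR-224-5p was detected at 6.33 and 6.65 in mESCs and on neither EB array. miR-669l-3p read 13.6 and 6.89 in mESCs, and miR-5116 read 8.31 and 7.04, neither detected in EBs. Calls of such miRNAs are part of the 126 and 122 above and depend on the floor that stands in for undetected values, since the ones named here did not pass with a floor 4 times as high.

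Smaller lists also held called members, at log2 changes between -0.48 and 0.56. Of all miRNAs tested, 26% were higher and 25.2% lower. Of 6 members made without Drosha or from short introns, miR-877-5p and miR-702-3p were higher (both lost without any single one of the 4 arrays) and miR-484 and miR-877-3p lower, and miR-484 turned to 0.34 (log2) with no scaling and was not called without either mESC array or EB array 2. Of 3 entries that match ribosomal or transfer RNA, which serve here as a reading of RNA fragments, miR-5115 was higher at 27.9 and 29.7 against 19.5 and 19.6, a call lost without mESC array 1 or EB array 2, and the others did not pass. miR-126-3p, the endothelial miRNA, was 1.28-fold lower (adjusted p = 0.0341) and turned to 0.38 (log2) with no scaling, and its call was lost with median, hur or quantile scaling and without either mESC array or EB array 2.

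Genes that lie within 10 kb of each other were grouped into clusters after the values were seen, and log2 changes were compared between pairs of miRNAs. Pairs of the same seed and cluster differed by a median of 0.13 (10 pairs), pairs of the same seed in different clusters by 0.26 (48 pairs), and pairs of 1 cluster with other hairpins and seeds by 0.27 (129 pairs). The arms of 1 hairpin differed by 0.40 (40 pairs) and unrelated pairs by 0.43 (35819 pairs). Pairs share miRNAs, so these are descriptions without a test.

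Base composition went along with the changes. A RefSeq sequence was matched for 287 of the 394 miRNAs detected on all 4 arrays, 72.8%, which is too few for a check of the whole set and makes it void, so the values describe the 287. Those with under 40% G and C had a median log2 change of -0.27, with 5 higher and 23 lower of 43. Those with 60% or over had a median of 0.21, with 31 higher and 11 lower of 99, and the bins between stood at -0.06 and 0.04. Across these miRNAs, which share arrays and probe chemistry, the change correlated with G and C content at r = 0.30 (Spearman 0.37, n = 287). The 86 with the later, 4-digit entry numbers had a median of 0.21 and the 201 with earlier numbers -0.04. The part of probe composition in the changes was not tested.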

How the data were processed

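Total RNA of 2 mESC, 2 normoxic EB and 2 hypoxic EB samples was profiled on Cy3 arrays. The labels' protocol describes amplified cRNA, usual for messenger RNA, so the labelling used for these arrays remains unknown. The deposited files give, per the file headers, an intensity (total gene signal) and a detection flag per miRNA, with undetected miRNAs at 0.1. The detection rule is not given in the sources used here. The authors also deposited a table whose normalized ratio per miRNA was not scaled between arrays. Its 6 columns for 2 arrays that match no listed sample were not used.

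Signals were divided by their array's 75th percentile, taken over the 391 miRNAs that all 6 arrays detected, brought back to array units with the mean percentile, given a floor of 2.91 and put on the log2 scale from the deposited intensities. Arrays were grouped by their labels. Group means were fitted with limma 3.58.1 (R 4.3.3, residual df 3, prior df 1.43) for the 484 miRNAs detected on both arrays of any group, at a threshold of 0.05. Every adjusted p is from such a fit, and arm differences (55) and seed-family ratios (39) had their own. The code was tested on simulated data. The number of arrays limits the precision.

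Named miRNAs were the 8 largest rises and falls among called miRNAs detected on all 4 arrays whose groups did not overlap. Also named were up to 6 detected in 1 group only per direction and extremes of seed families with 3 or more members. The 8 largest arm changes, the 4 largest rises and falls against a seed family, called list members and 8 fixed miRNAs were added. Members and lists were chosen with earlier results of these data known. Sequences are RefSeq's (329 of 451 members matched; Python 3.11.15). Replicate numbers do not pair the samples, since deviations correlated at -0.03, 0.15 and 0.11. Alternatives were other scalings, floors, filters and fits and leaving out each array.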

Additional observations from a re-analysis of the deposited data

How the results depend on the processing

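The count of 248 ran from 142 without mESC array 1 to 258 without either hypoxic EB array, that of higher miRNAs from 63 to 138 and that of lower ones from 79 to 120. Hairpins with a changed arm ratio ran from 21 to 32 and ratios to the seed family from 24 to 29. A floor 4 times as high gave 154 (57 higher and 97 lower), and testing all 1247 miRNAs gave 94 (43 and 51), where undetected miRNAs at a constant value enter the variance estimate. Of the named miRNAs, 34 and 23 were called under these settings. The other scalings, floors and fits gave 226 to 337 calls, 31 to 34 arm ratios and 27 to 29 family ratios. With replicate numbers as a block, 242 miRNAs passed (125 higher and 117 lower), with 33 arm ratios. The numbers do not pair the samples.

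No scaling and the authors' normalized ratio both gave 326 higher and 11 lower and a median log2 change of 0.73, since the EB arrays were brighter as scanned. The ratio is not scaled between arrays and divides each miRNA by a constant, which cancels between groups. Its results therefore had to equal those of no scaling and are no separate check. Whether the scaling or the raw signal is nearer to the amounts of RNA was not tested. Under both, these log2 changes turned from negative to positive: miR-9-3p 0.021, miR-221-3p 0.029, miR-322-5p 0.037, miR-9-5p 0.12, miR-99b-5p 0.15, miR-291a-5p 0.16, miR-290-3p 0.20, miR-200c-3p 0.24, miR-669e-5p 0.24, miR-877-3p 0.25, miR-294-5p 0.27, miR-31-5p 0.28, miR-125a-5p 0.29, miR-29a-3p 0.31, miR-484 0.34, miR-126-3p 0.38, miR-200b-3p 0.41, miR-301a-3p 0.44, miR-674-3p 0.46, miR-294-3p 0.50, miR-29b-3p 0.53, miR-574-5p 0.54, miR-363-3p 0.54, miR-20b-5p 0.58, miR-20a-5p 0.59, miR-296-5p 0.59, miR-30e-5p 0.61, miR-15b-5p 0.62, miR-295-3p 0.63, miR-291a-3p 0.65, miR-106b-5p 0.66, miR-17-5p 0.67, miR-16-5p 0.67, miR-25-3p 0.68, miR-92a-3p 0.69 and miR-155-5p 0.69. The ratio of miR-20b-5p to its seed family turned to 0.11 and the change of miR-6394 to -0.032 with quantile normalization, and the cause was not tested. Dim miRNAs, those near the floor of 2.91 units, hold the calls that the floor decides.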
